A study of Mus musculus with 36 samples.

Results

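The mitochondrial ribosomal protein genes are the nuclear genes with symbols of Mrpl or Mrps, then a number and at most 1 further letter. Pseudogenes were left out. Mrpl stands for the large and Mrps for the small subunit, but the symbol does not place every protein, as for Mrps18a and Mrps36 below. The count table listed 78 of these genes among 55487 in all, 49 with an Mrpl symbol and 29 with an Mrps symbol. Their RNA was followed through 36 libraries of E14.5 mouse cortex, in which clarified lysate (input), a monosome fraction and a polysome fraction from a sucrose gradient were sequenced. The study compared 2 alleles of Ddx3x, which is X-linked and encodes a DEAD-box helicase of translation, each in heterozygous females (cHet). In the LoF cross the cHet genotype was Emx1-Cre/+;Ddx3x lox/+ and the control was Ddx3x lox/+, which carries the floxed allele and no Cre. In the T532M cross the cHet genotype was Emx1-Cre/+;Ddx3x-T532M lox/+ and the control was Emx1-Cre/+, which carries Cre and no floxed allele. Emx1-Cre acts in the dorsal telencephalic lineage, so interneurons, vessels, meninges and blood in the same tissue keep their alleles. Whether 1 or both Ddx3x alleles are active in each cell of these heterozygous females was not tested. Each of the 12 groups held 3 libraries, and each sample was the pooled cortices of 2 embryos. The 3 fractions of a sample came from 1 lysate. Which of the 12 gradient fractions made up each pool was not given in the sources used here.

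Mitochondria translate a small set of respiratory chain subunits on their own ribosomes. The RNAs of those ribosomes are transcribed from mitochondrial DNA, whereas every one of their proteins is made from a nuclear gene, translated in the cytosol and imported. The mRNAs described here are therefore read by cytosolic ribosomes, the machinery on which DDX3X acts, and not by the ribosomes they encode. A monosome is an mRNA with 1 ribosome and a polysome an mRNA with several, so the ratio of polysome to monosome RNA reports how heavily an mRNA is loaded. A short coding sequence has room for fewer ribosomes than a long one.

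The members have short coding sequences. Annotated coding lengths ran from 195 to 1326 nucleotides, without the stop codon. The 2 coding sequences below are printed whole, with the start and stop codons in capitals. They are short and belong to members with some of the lowest polysome values. Both are from GENCODE M21 transcripts on build GRCm38. Mrps21 lies at chr3:95862634-95871519 on the minus strand, and Mrpl34 lies at chr8:71464959-71465747 on the plus strand.
Mrps21: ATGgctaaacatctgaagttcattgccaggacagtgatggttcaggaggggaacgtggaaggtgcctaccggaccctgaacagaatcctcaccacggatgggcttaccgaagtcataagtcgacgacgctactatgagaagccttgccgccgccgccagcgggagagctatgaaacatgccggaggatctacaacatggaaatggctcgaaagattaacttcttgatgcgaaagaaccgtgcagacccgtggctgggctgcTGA
Mrpl34: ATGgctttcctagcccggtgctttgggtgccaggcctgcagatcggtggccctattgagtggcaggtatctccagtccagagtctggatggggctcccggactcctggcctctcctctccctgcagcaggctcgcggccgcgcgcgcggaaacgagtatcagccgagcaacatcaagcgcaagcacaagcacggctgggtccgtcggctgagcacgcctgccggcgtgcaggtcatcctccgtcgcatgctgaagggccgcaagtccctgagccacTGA
Including the stop codon, the first is 264 and the second 279 nucleotides long. The leaders before the start codon were also short, with a median of 91.5 and a range of 16 to 525 nucleotides, and had a median GC content of 63.9%. At least 1 upstream ATG was present in the leader of 29 of the 78 members.

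RefSeq promoter windows of GRCm38.p6, from 250 bases before to 50 bases after a start site, were matched by symbol for 69 of the 78 members. The letters CCGGAAG, which the ETS family of transcription factors binds, were found on either strand in 26 of the 69 (37.7%), against 9.9% of all 27025 genes with a window. The letters AAGATGGCG, bound by YY1, were found in 8 members (11.6%) against 1.6% of all genes. The core GCGCATGC of the nuclear respiratory factor NRF1 was found in 8 members (11.6%) against 3.0%. The TATA box letters TATAAA were found in 5 members (7.2%) against 15.7%. The 4 stretches below, each the 100 bases before the start, come from 2 members with low and 2 with high polysome values, and capitals mark the ETS letters on either strand. They lie at chr14:54426809-54426908 (plus strand), chr8:71464826-71464925 (plus), chr9:98601680-98601779 (minus) and chr13:99344686-99344785 (plus).
Mrpl52: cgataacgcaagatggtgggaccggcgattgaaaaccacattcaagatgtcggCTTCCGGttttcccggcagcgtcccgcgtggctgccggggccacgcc
Mrpl34: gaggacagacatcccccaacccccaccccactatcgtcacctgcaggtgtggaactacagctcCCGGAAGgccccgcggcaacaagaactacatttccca
Mrps22: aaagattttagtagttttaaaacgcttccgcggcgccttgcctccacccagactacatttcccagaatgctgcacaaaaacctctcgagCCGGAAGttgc
Mrps27: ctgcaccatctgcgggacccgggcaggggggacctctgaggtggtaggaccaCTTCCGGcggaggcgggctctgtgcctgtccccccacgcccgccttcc
The same letters thus stood before genes at opposite ends of the polysome order, and a match is a description of the sequence only.

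The libraries held 36999365 to 57935512 read pairs assigned to genes. Of these the members took 0.401% to 0.479% in input, 0.28% to 0.333% in monosomes and 0.0544% to 0.0861% in polysomes. Ddx3x, the targeted gene, stood at 90.8 to 156 CPM (read pairs relative to the scaled library size) in LoF control inputs and 62.7 to 118 CPM in LoF cHet inputs, which overlapped. In T532M inputs it stood at 50.1 to 145 CPM in controls and 166 to 235 CPM in cHet, which did not overlap. Both alleles are read by the same gene model, so these counts do not check the labels. Ttr, a choroid plexus marker, exceeded 10 CPM in the input of 4 pools, LoF control replicates 1 and 3, LoF cHet replicate 1 and T532M cHet replicate 1. Tbr1, a defining marker of cortical neurons, was present in every input.

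Of the 78 members, 75 passed the filter on low counts in every fit. Mrpl33, Mrpl53 and Mrps6 did not. Mrpl33 and Mrpl53 had 0 read pairs and Mrps6 had 4 in all 36 libraries together. Between 99.9% and 100% of the gene span of each was covered by other gene models on the same strand. Read pairs that fall in more than 1 model were not counted, so their absence here is no measure of expression. Mrps34 (42%), Mrps18c (39.3%) and Mrps24 (19.4%) also shared part of their span with a neighbour, and their counts are lower bounds. The same holds for smaller shared parts of Mrpl46 (13%), Mrpl3 (12.2%), Mrpl15 (9.2%), Mrpl51 (1.9%), Mrpl21 (0.6%) and Mrps28 (0.3%). Mrps36, Mrpl23, Mrpl27 and Mrpl48 have named pseudogene copies, and reads may be split between copies.

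In control input the members differed 28.9-fold in level per kilobase of RNA. Mrps21 was highest at 143 ± 10.3 CPM per kilobase (SD, n = 6 control inputs of both crosses). Mrpl42 followed at 138 ± 9.73, and the ranges of these 2 (127 to 154 and 124 to 151) overlapped. Mrpl30 came next at 112 ± 9.27. The median over the 75 was 29.5 CPM per kilobase. The lowest were Mrpl17 at 6.52, Mrps25 at 6.37 and Mrpl1 at 4.95. These values divide counts over whole gene spans by the RNA length of 1 annotated transcript per gene. Mrpl17 (7300 nucleotides) and Mrps25 (6073) had the longest of these transcripts, so their place depends on the transcript chosen. Mrpl12, a stalk protein that also binds mitochondrial RNA polymerase, reached 62.9 ± 3.62. Its stalk partner Mrpl10 lay at 30.9 ± 1.44. Mrps12, part of the decoding centre, lay at 29.5 ± 2.26, close to the members' median.

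In control cortex the members were mostly depleted from polysomes. Between polysome and monosome libraries of the LoF controls, 60 of 75 members fell (44.9% of all genes did) and 7 rose (36.4% of all genes did). The median of the members was -1.63 on the log2 scale, against -0.31 for all genes tested. The T532M controls had 61 that fell (43.9% of all genes) and 7 that rose (36%), with a median of -1.53 against -0.31. All 7 risers were shared by both crosses, as were 60 of those that fell. The risers were Mrps5, Mrps27, Mrps31, Mrps22, Mrpl3, Mrpl39 and Mrps30. These calls rest on TMM scaling, which assumes that most genes do not differ between fractions. With library totals in its place, 4 members rose and 70 fell in the LoF controls, and 3 rose and 71 fell in the T532M controls. Mrps5, Mrps27 and Mrps31 rose under both scalings in both crosses. Mrps22 rose with totals in the LoF controls at 0.30 (adjusted p = 0.017) and stood at 0.21 in the T532M controls (adjusted p = 0.14). Mrpl39 turned to -0.49 and -0.71 and Mrps30 to -0.56 and -0.76. By name class, 38 of 47 Mrpl and 22 of 28 Mrps genes fell in the LoF controls.

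**Figure D1:**
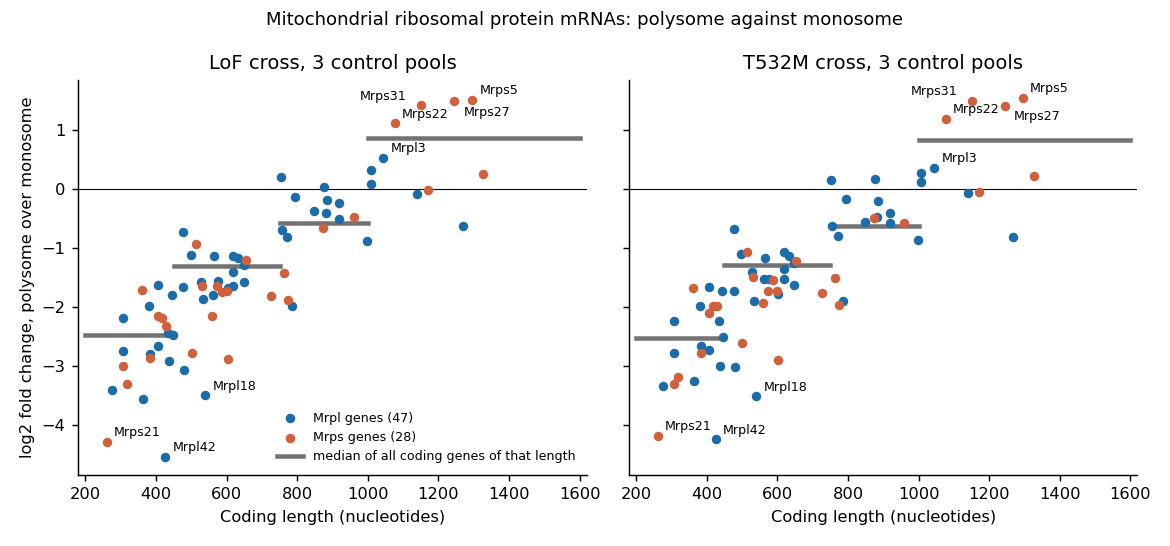
Log2 fold change of polysome over monosome RNA with TMM scaling (y) against coding length in nucleotides (x) for 75 members in the control pools of each cross; every point is a gene and grey bars are medians of all coding genes of that length class. The points climb from Mrps21 and Mrpl42, below -4, to Mrps5, Mrps27 and Mrps31, above 1.

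Mrps21, a small subunit protein, showed one of the strongest depletions. In the LoF controls it stood at 66.7, 72.5 and 68.3 CPM in input, at 102, 101 and 96.7 CPM in monosomes, and at 4.82, 5.56 and 4.94 CPM in polysomes. In the T532M controls the values were 75.03, 62.1 and 74.2 CPM in input, 93.6, 89.7 and 87.7 CPM in monosomes, and 5.29, 4.75 and 4.86 CPM in polysomes. The 3 fractions did not overlap in either cross, with monosomes on top and polysomes far below. The log2 fold change of polysome over monosome was -4.29 (SE 0.13, adjusted p = 3.9e-15, edgeR quasi-likelihood test) in the LoF controls and -4.18 (SE 0.15, adjusted p = 4.2e-14) in the T532M controls.

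Mrpl42 had the lowest ratio of all members. Its LoF control levels were 101, 93.4 and 82.9 CPM in input, 176, 196 and 174 CPM in monosomes and 7.31, 8.44 and 7.68 CPM in polysomes. In the T532M controls they were 87.5, 91.3 and 97.3 CPM, 150, 135 and 158 CPM, and 7.77, 8.93 and 6.80 CPM. Its coding sequence is 426 nucleotides long, and coding genes within 10% of that length had a median of -1.94 in the LoF controls, whereas Mrpl42 was at -4.54 (SE 0.17, adjusted p = 1.9e-14). The T532M controls gave -4.24 (SE 0.13, adjusted p = 1.5e-14), with a like-length median of -1.96. Mrpl42 thus lay 2.60 and 2.28 log2 units below genes of its own length.

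The other members with the lowest ratios were Mrpl18, Mrpl52 and Mrpl34. Mrpl18 moved by -3.49 and -3.51, Mrpl52 by -3.56 and -3.26, and Mrpl34 by -3.41 and -3.35 in the LoF and T532M controls. Mrpl34 levels in the LoF controls were 45.1, 46.5 and 47.5 CPM in input, 39.7, 27.8 and 39.3 CPM in monosomes, and 3.34, 3.22 and 3.51 CPM in polysomes. Unlike Mrps21 and Mrpl42 it had no monosome excess over input.

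At the other end stood 4 long small subunit genes. Mrps5, whose protein lines the mRNA entry channel, was at 67.1, 71.9 and 68.2 CPM in LoF control input, 27.1, 31.2 and 28.1 CPM in monosomes and 80.2, 84.0 and 81.7 CPM in polysomes. In the T532M controls it was at 73.5, 68.6 and 68.0 CPM, 26.7, 28.5 and 27.8 CPM, and 86.8, 75.8 and 79.4 CPM. Its monosome libraries were below every input and polysome library. The log2 fold change of polysome over monosome was 1.51 (SE 0.09, adjusted p = 4.5e-12) and 1.54 (SE 0.11, adjusted p = 1.4e-10). Mrps27, a pentatricopeptide repeat protein, rose by 1.48 and 1.40, Mrps31 by 1.41 and 1.495, and Mrps22 by 1.11 and 1.19. Mrps22 was at 10.97, 14.4 and 11.4 CPM in LoF control monosomes and 25.9, 27.7 and 25.6 CPM in polysomes, again without overlap. Mrpl3, a large subunit protein near the peptidyl transferase centre, rose by only 0.53 and 0.36, and with library totals its change was -0.28 and -0.61.

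The remaining genes named for their roles fell. Of the stalk, Mrpl10 changed by -1.98 and -1.90, Mrpl12 by -1.68 and -1.79, and Mrpl11, at the stalk base, by -1.57 and -1.53. Mrps12 changed by -2.19 and -1.99. Its levels in the LoF controls were 24.3, 26.3 and 25.8 CPM in input, 16.9, 11.6 and 16.5 CPM in monosomes and 2.95, 3.48 and 3.43 CPM in polysomes, so that each fraction lay wholly below the one before. Among other small subunit proteins Mrps7 changed by -1.82 and -1.76, Mrps16 by -2.16 and -2.11, and Mrps2 by -0.66 and -0.50. Mrps34 changed by -1.20 and -1.23. The 3 paralogues of the S18 family were alike in direction, with -1.76 and -1.54 for Mrps18a, whose protein sits in the large subunit, -1.42 and -1.51 for Mrps18b, and -2.32 and -1.99 for Mrps18c. Mrpl58, a peptidyl-tRNA hydrolase that rescues stalled ribosomes, changed by -1.65 and -1.53. Mrpl44 changed by -0.88 and -0.87, and Mrpl57 by -2.19 and -2.25. Mrps36 changed by -3.0 and -3.31. Its protein is now regarded as a subunit of the alpha-ketoglutarate dehydrogenase complex and not of the ribosome.

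**Figure D2:**
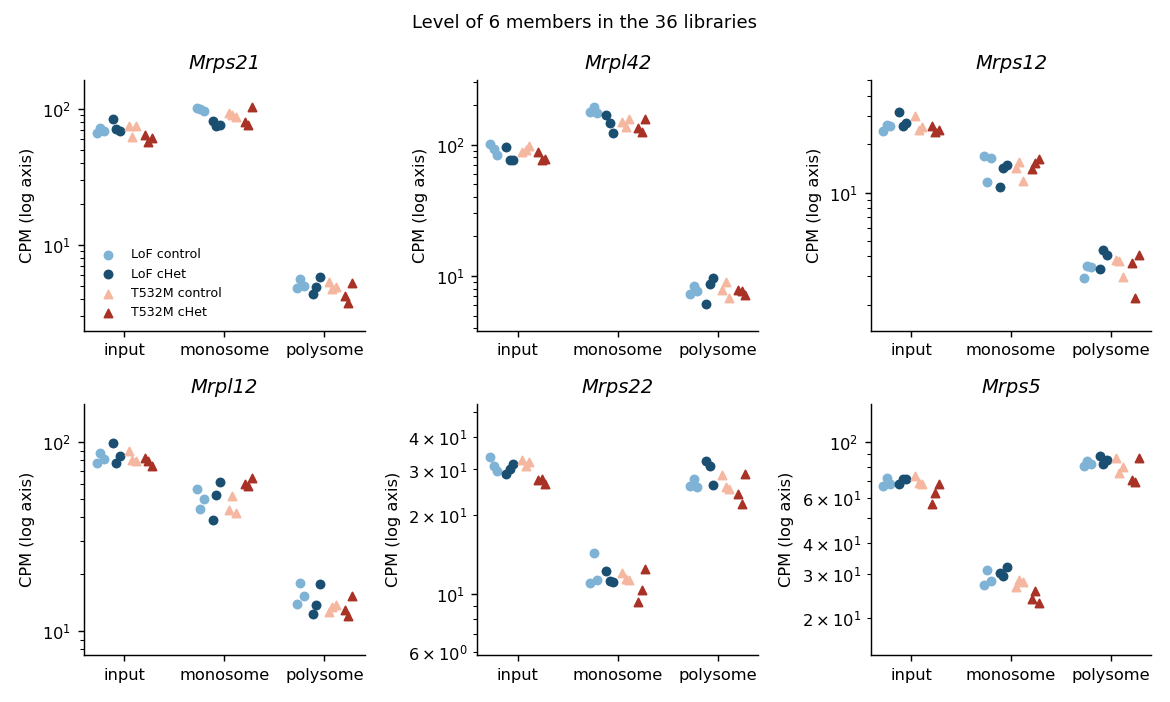
CPM (log axis) of 6 members in input, monosome and polysome libraries; each point is 1 of 36 libraries, circles for the LoF cross and triangles for the T532M cross, light for controls and dark for cHet. In controls Mrps21 and Mrpl42 are highest in monosomes and below 10 CPM in polysomes, Mrps12 and Mrpl12 step down from input to monosome to polysome, and Mrps22 and Mrps5 dip in monosomes and return in polysomes.

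The order of the members followed coding length. Across the 75 members, which share the same libraries, Spearman's rank correlation between coding length and the polysome over monosome change was 0.845 in the LoF and 0.846 in the T532M controls. Across 14482 coding genes in the LoF controls it was 0.636, and across 14308 in the T532M controls 0.634. Leader length and leader GC content had rank correlations of -0.122 and -0.06 with the same change in the LoF controls. The 21 members up to 450 nucleotides had a median of -2.67 in the LoF controls (all coding genes of that class -2.48). The 27 members above 450 and up to 750 nucleotides had -1.65 (all -1.30), and the 16 above 750 and up to 1000 had -0.49 (all -0.58). The 11 members over 1000 nucleotides had 0.32, against 0.85 for all coding genes in that open class, which reaches far longer sequences. Set against genes within 10% of their own length, 44 of 75 members were lower in the LoF controls and 42 in the T532M controls, with a median difference of -0.11 and -0.10. Cytosolic ribosomal proteins, the closest list in function, were lower at each length, with -3.64, -2.88, -2.17 and -1.29 in the same 4 classes.

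Monosome libraries also held less member RNA than input. In the LoF controls 57 of 75 members fell from input to monosome (30.6% of all genes) and 5 rose (32.2%), with a median of -0.61 against 0.04 for all genes. In the T532M controls 62 fell (31%) and 5 rose (32.1%), with a median of -0.79 against 0.03. The 5 risers, Mrpl42, Mrpl18, Mrps21, Mrpl51 and Mrps10, were shared by the crosses. With library totals 4 members rose in each cross. Mrps10 then stood at 0.28 (adjusted p = 0.12, edgeR) in the LoF and 0.34 (adjusted p = 0.052) in the T532M controls. In the T532M controls 3, 2 and 3 members rose without control replicates 1, 2 and 3, respectively, and 3 with no filter on low counts. In the LoF controls 3 rose without the 3 pools that held most Ttr. Mrpl42 rose by 0.98 (SE 0.15, adjusted p = 9.0e-06) and 0.68 (SE 0.11, adjusted p = 3.0e-05). Here the length order ran the other way. The rank correlation of the members with coding length was -0.53 and -0.434, whereas for all coding genes it was 0.2 and 0.246. The 11 members over 1000 nucleotides had medians of -1.08 and -1.09, all 11 negative, while all coding genes in that class had 0.01 and 0.06. Of the genes named for their role, Mrpl3 (-1.54 and -1.40) and Mrps22 (-1.36 and -1.46) were lowest.

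From input to polysome, 70 members fell in the LoF controls (42.8% of all genes) and 3 rose (36.5%), with a median of -2.22 against -0.27. In the T532M controls 71 fell (42.4%) and 2 rose (36.6%), with a median of -2.29 against -0.26. Mrps31 rose by 0.47 and 0.59 and Mrps27 by 0.34 and 0.32 with TMM scaling, but with library totals both were lower in polysomes, at -0.38 and -0.33 for Mrps31 and -0.51 and -0.60 for Mrps27. With totals 0 members rose and 75 fell in each cross. Without T532M control replicate 2, 1 member rose in that cross. Mrps5 rose by 0.25 in the LoF controls (adjusted p = 0.012; -0.60 with library totals) and stood at 0.20 in the T532M controls (adjusted p = 0.075). Choosing library totals moved the median of all genes from -0.31 to -1.12 between LoF control polysomes and monosomes and from -0.31 to -1.28 in the T532M controls. It moved the higher share of all called genes from 44.7% to 28.8% and from 45.1% to 25.8%. Relative to all genes the members' median was -1.32 with TMM and -1.33 with totals in the LoF controls, and -1.22 with both in the T532M controls.

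Other genes of mitochondrial translation are given by list, as counts. Of 6 mitoribosomal proteins with other symbols, 2 rose from monosome to polysome and 4 fell in each cross. Dap3, a GTP-binding small subunit protein, rose by 1.48 and 1.40, Ptcd3 by 1.097 and 1.15, and Chchd1 changed by -3.66 and -3.62. Of 17 mitochondrial aminoacyl-tRNA synthetases, enzymes that charge the organelle's tRNAs, 11 rose and 3 fell in the LoF controls and 12 rose and 3 fell in the T532M controls, with medians of 0.86 and 0.78. Aars2 (2.79 and 2.57) and Iars2 (2.71 and 2.65) were the highest. Of 13 tested translation factors 4 rose and 7 fell in the LoF controls and 4 rose and 6 fell in the T532M controls. Gfm1, an elongation factor G, rose by 3.28 and 3.34, and Tufm, the elongation factor Tu, by 2.37 and 2.34. Of 26 assembly factors 5 rose and 13 fell in the LoF controls and 5 rose and 15 fell in the T532M controls, with medians of -0.26 and -0.38. Dhx30, an RNA helicase of mitochondrial granules, rose by 1.72 in the LoF controls, and Malsu1 changed by -2.74 and -2.64. The 2 mitochondrial ribosomal RNAs, which are not cytosolic messages, fell with medians of -4.58 and -3.52, as did all 10 tested mitochondrially encoded mRNAs, with medians of -7.31 and -5.63.

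No member passed the test between LoF cHet and control in any fraction by edgeR's quasi-likelihood test or by DESeq2. All genes called made up 0% in input, 0.0108% in monosomes and 0% in polysomes. The members' median was 0.05 in input (62 of 75 positive, all genes -0.01), 0.01 in monosomes (39 positive, all genes 0.01) and 0.06 in polysomes (51 positive, all genes 0.01). At an unadjusted p under 0.05 there were 1, 2 and 1 members by edgeR and 2, 3 and 1 by DESeq2. Of all 18556 genes tested by edgeR, 1996, 779 and 600 had such a p. The summed level of the members was 3554 ± 93.4 CPM in control and 3672 ± 262 in cHet input (SD, n = 3), 2576 ± 82.1 and 2494 ± 163 in monosomes, and 1034 ± 73.0 and 1085 ± 143 in polysomes. Each difference was smaller than the larger SD. The rank correlation of the LoF input change with coding length was -0.324 over the members and -0.187 over all coding genes. For the T532M input change these were 0.314 and 0.204. In LoF input 75 of 77 tested cytosolic ribosomal proteins were also positive, with a median of 0.12.

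**Figure D3:**
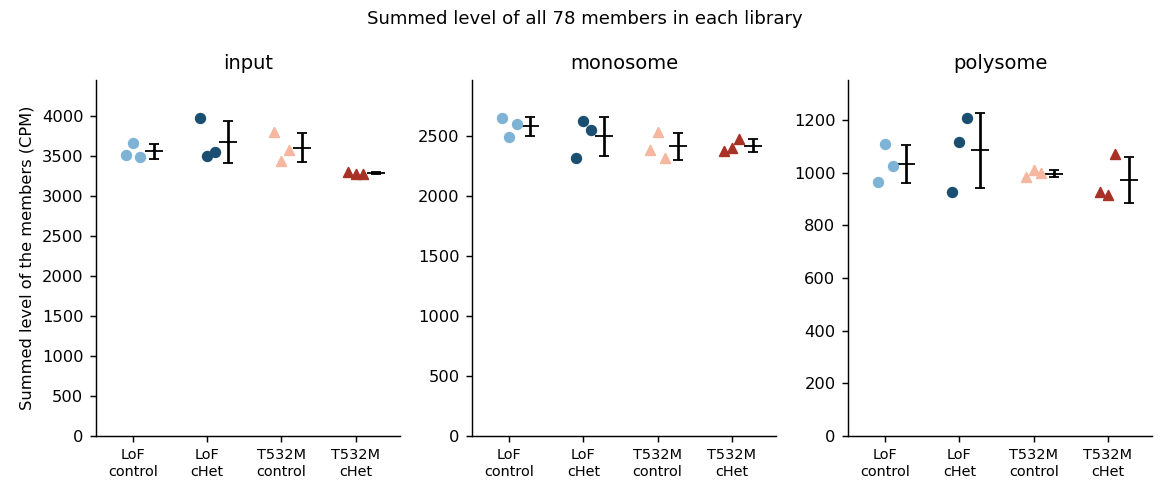
Summed CPM of all 78 members in each library (y, from 0) by group in the 3 fractions; points are libraries and black bars are the mean and SD of 3. Groups overlap in every fraction of both crosses except T532M input, where the 3 cHet libraries (3273 to 3302 CPM) lie below the 3 controls (3432 to 3791 CPM).

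The member with the smallest p in LoF input was Mrpl1, a large subunit protein. Its levels were 20.5, 18 and 16.96 CPM in controls and 13.6, 15.8 and 13.1 CPM in cHet, so every cHet library lay below every control. The log2 fold change was -0.38 (SE 0.11, adjusted p = 0.27, edgeR). In polysomes the same gene stood at 15.7, 15.95 and 15.9 CPM in controls and 15.9, 18.7 and 18.2 CPM in cHet. Mrps35 and Mrps28 followed in input, at 0.17 (adjusted p = 0.61) and 0.20 (adjusted p = 0.62).

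In LoF monosomes the smallest p belonged to Mrps21. The controls were at 102, 101 and 96.7 CPM and the cHet libraries at 81.5, 74.4 and 75.7 CPM, without overlap. The log2 fold change was -0.37 (SE 0.11, adjusted p = 0.9997, edgeR). Without LoF cHet replicate 1 the value was -0.41 and its adjusted p 0.041, in a fit that called 180 genes in all. Over 15 alternatives the adjusted p ran from 0.041 to 1. Mrpl42 was next at -0.33 (adjusted p = 0.9997), with controls at 176, 196 and 174 CPM and cHet at 167, 146 and 122 CPM. Mrpl1 came after it at -0.21. In LoF polysomes Mrps31 led at 0.25 (adjusted p = 1), with 29.6, 27.5 and 27.1 CPM in controls and 35.5, 33.99 and 30.8 CPM in cHet, ahead of Mrpl52 at 0.29 and Mrps22 at 0.17. Without the 3 LoF pools that held most Ttr, 6 members passed in monosomes, 5 of them higher, beside 942 genes in all. That fit holds 1 LoF control pool, which is assumed to vary like the remaining cHet pools, so these calls have no replicate check among controls. They were Mrpl41, Mrpl20, Mrps17, Mrpl55, Mrpl36 and, lower, Mrpl42, and the first 5 had log2 fold changes of 0.02 to 0.20 with all pools.

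Members whose groups did not overlap were few in the LoF cross. In input 4 members lay wholly higher in cHet (5.08% of all genes did) and 4 wholly lower (6.22%). In monosomes 3 lay higher (5.57%) and 6 lower (4.97%). In polysomes 1 lay higher (4.16%) and 0 lower (2.55%). Among 75 members these counts are shares of 0% to 8%, near the share of all genes.

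In T532M input nearly all members leaned lower in cHet, without any of them passing the test. The median was -0.15 against -0.001 for all genes, and 71 of 75 members were negative. In 32 members (42.7%) every cHet library lay below every control, as did 7.21% of all genes, and 0 members lay wholly higher (6.11%). All genes called made up 0.00548%. At an unadjusted p under 0.05 there were 6 members by edgeR, where 1957 of all 18243 genes were, and 19 by DESeq2. After adjustment 0 members passed by either tool. The summed level was 3597 ± 181 CPM in control and 3283 ± 16.5 CPM in cHet (SD, n = 3). An exact permutation test of 3 against 3 libraries cannot give a 2-sided p below 0.10. In bulk tissue fewer cells of a type and less RNA per cell cannot be told apart.

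Mrpl48 had the smallest p in T532M input. It was at 33.5, 30.4 and 31.95 CPM in controls and 27.4, 26.95 and 25.1 CPM in cHet, without overlap. The log2 fold change was -0.27 (SE 0.10, adjusted p = 0.36, edgeR). Mrpl47 was at 31.5, 35.4 and 38.8 CPM in controls and 30.7, 30.3 and 26.6 CPM in cHet (log2 fold change -0.27, adjusted p = 0.42). Mrpl34 was at 55.8, 43.5 and 48.9 CPM in controls and 41.8, 38.2 and 37.2 CPM in cHet (log2 fold change -0.34, adjusted p = 0.43). In LoF input Mrpl48 was at 31.7, 31.4 and 30.5 CPM in controls and 36.3, 32.8 and 30.6 CPM in cHet, and these groups overlapped.

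The lean in T532M input was graded by length and was not limited to the members. Their medians were -0.19, -0.15, -0.12 and -0.09 from the shortest to the longest coding class, and those of all coding genes were -0.13, -0.06, -0.03 and 0.04. Cytosolic ribosomal proteins stood at -0.26, -0.21, -0.17 and -0.20. With a trend on RNA length removed from each library, the members' median was -0.08 with 63 of 75 negative. Without T532M control replicate 1 it was also -0.08, with 66 negative. Cortical neuron markers leaned in the same direction. Their summed level over 6 genes was 1826 to 2303 CPM in control and 1580 to 1799 CPM in cHet input, the 5 tested were all negative with a median of -0.33, and the sixth, Tubb3, was listed at 0 in each of these libraries. The 7 markers of choroid plexus and cortical hem were all positive, with a median of 2.47, and 5 of 7 markers of meninges and vessels were positive, with a median of 0.30. Of 7 interneuron and ventral forebrain markers 4 were positive (median 0.13), and 4 of 5 microglia markers were negative (median -0.235). Neither list of progenitor markers had a median beyond 0.03, and erythroid markers were 3 positive and 3 negative. The same 5 neuron markers were also all negative in T532M monosomes (median -0.31) and polysomes (median -0.475), where the members' medians were -0.005 and -0.04. No marker on these lists passed the test in T532M input. The part of cell composition in the members' lean was not tested. Without T532M cHet replicate 1, the pool with most Ttr, the members' median was -0.14.

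**Figure D4:**
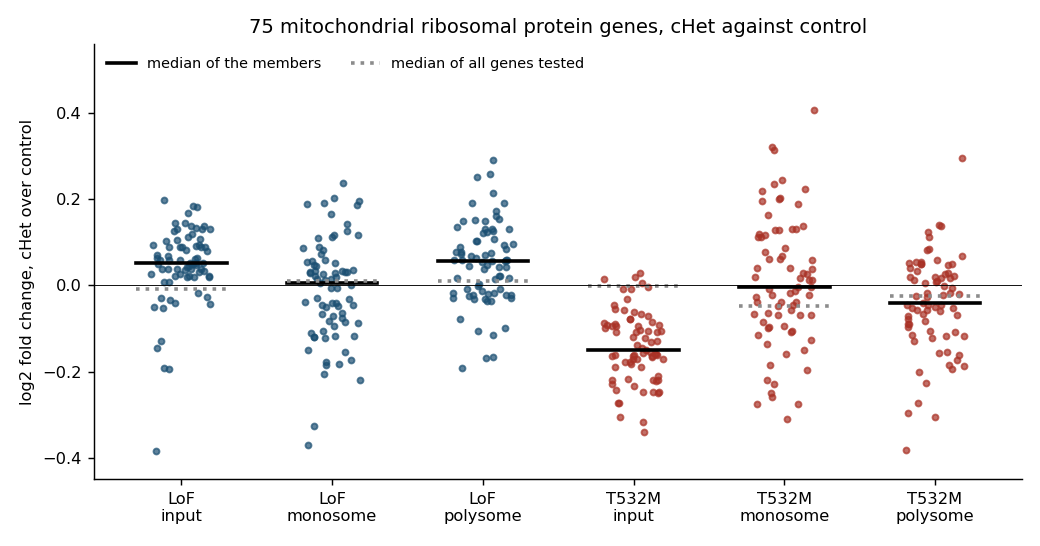
Log2 fold change of cHet over control for 75 members (points) in each fraction of each cross, with the members' median (solid bar) and the median of all genes tested (dotted bar). The T532M input points lie almost wholly below 0 with a median of -0.15, while the other 5 medians are between -0.04 and 0.06.

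In T532M monosomes the members spread to both sides. Their median was -0.005 against -0.05 for all genes, with 36 positive and 39 negative, and all genes called made up 1.03%. No member passed by edgeR, with 13 at an unadjusted p under 0.05 (2144 of all 18243 genes were). By DESeq2 4 members passed, among 564 genes called in all. Groups did not overlap for 6 higher members (8.93% of all genes) and 14 lower members (12.7%). Short members were the higher ones. The medians were 0.11, 0.04, -0.06 and -0.14 by coding class, and all 11 members over 1000 nucleotides were negative. All coding genes had 0.06, 0.07, -0.02 and -0.08. The rank correlation with coding length was -0.478 over the members and -0.217 over all coding genes.

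Mrpl12 came closest to the threshold there. It stood at 43.5, 51.7 and 42.4 CPM in control monosomes and 59.8, 58.4 and 64.3 CPM in cHet monosomes, without overlap. The log2 fold change was 0.41 (SE 0.11, adjusted p = 0.076, edgeR), and DESeq2 gave 0.39 with an adjusted p of 0.0066. Over the 15 alternatives its value was 0.36 to 0.50 and its adjusted p 0.0066 to 0.63. It passed with the length trend removed (adjusted p = 0.013) and without T532M control replicate 2 (adjusted p = 0.026). Those fits called 358 and 636 genes in all. In input the same gene was at 89.7, 80.4 and 79.7 CPM in controls and 82.5, 79.4 and 74.8 CPM in cHet, and in polysomes at 12.6, 13.4 and 13.7 against 12.98, 11.97 and 15.4 CPM, which overlapped. In LoF monosomes it was at 56.1, 44.5 and 49.9 CPM in controls and 38.8, 52.5 and 61.4 CPM in cHet, also overlapping. Mrpl45, which tethers the ribosome to the inner membrane, was at 29.1, 29.8 and 30.1 CPM in T532M control monosomes and 26.99, 23.7 and 22.8 CPM in cHet (log2 fold change -0.27, adjusted p = 0.23, edgeR; 0.024 by DESeq2). Mrpl19 was at -0.23 (adjusted p = 0.25, edgeR; 0.045 by DESeq2), and Mrps10 at -0.28 (0.048 by DESeq2). Over the alternatives the adjusted p ran from 0.024 to 0.81 for Mrpl45 and from 0.045 to 0.93 for Mrpl19.

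In T532M polysomes no member passed by either tool, and all genes called made up 0%. The median was -0.04 (46 of 75 negative, all genes -0.02), with 4 members at an unadjusted p under 0.05 by edgeR and 2 by DESeq2. By edgeR 1443 of all 18243 genes had such a p. Wholly separate groups were seen for 0 higher members (3.82% of all genes) and 2 lower ones (5.8%), Mrpl14 and Mrpl32. The smallest p values were those of Mrpl48 (-0.27, adjusted p = 0.56), Mrps17 (-0.30, adjusted p = 0.59) and Mrpl14 (-0.38, adjusted p = 0.59). Mrpl48 was at 11.8, 11.03 and 9.84 CPM in controls and 8.87, 8.02 and 10.1 CPM in cHet, and the groups overlapped. In monosomes its groups were separate, at 25.3, 22.96 and 24.2 CPM in controls and 21.99, 19.9 and 21.7 CPM in cHet.

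The change of polysome over monosome between genotypes passed for no member in either cross. All genes called made up 0% in LoF and 0.0603% in T532M, and 2 and 6 members had an unadjusted p under 0.05 by edgeR (2 and 10 by DESeq2, with 0 after adjustment). By edgeR so did 561 of 18556 genes in LoF and 1249 of 18243 in T532M. The members' medians were 0.07 and -0.08. In LoF the smallest p values were those of Mrpl1 (0.36), Mrps21 (0.34) and Mrps31 (0.30), each with an adjusted p of 0.9999. In T532M they were those of Mrpl12 (-0.39, adjusted p = 0.60), Mrpl14 (-0.51, adjusted p = 0.62) and Mrps17 (-0.42, adjusted p = 0.65). The change of polysome over input likewise passed for no member, with 0.0108% and 0% of all genes called and medians of 0.01 and 0.10. There, 2 and 1 members had an unadjusted p under 0.05 by edgeR, and 2 and 1 by DESeq2. By edgeR so did 1275 of 18556 genes in LoF and 1113 of 18243 in T532M. Mrpl1 had the smallest p in LoF (0.53, adjusted p = 0.71) and Mrps36 in T532M (0.61, adjusted p = 0.80).

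The 2 alleles were compared with each other as the difference between their cHet-against-control changes. The crosses have unlike controls, with Cre in 1 and a floxed allele in the other, so an allele difference and a difference of controls cannot be told apart. In input the members' median difference, LoF minus T532M, was 0.17, with 72 of 75 positive and -0.03 for all genes. No member passed by edgeR (0.0105% of all genes did), and 5 members had an unadjusted p under 0.05 (3047 of 19121 genes did). By DESeq2 2 members passed, among 720 genes called in all. They were Mrpl48 at 0.40 (adjusted p = 0.016) and Mrps35 at 0.36 (adjusted p = 0.027). Over 20 alternatives their adjusted p ran from 0.016 to 1 and from 0.027 to 1. By edgeR these were at 0.34 (SE 0.13, adjusted p = 0.15) and 0.31 (SE 0.12, adjusted p = 0.19), and Mrpl1 was at -0.42 (SE 0.16, adjusted p = 0.15). Without the 4 pools with most Ttr the median was 0.09 with 56 positive, and with the length trend removed it was 0.09 with 59 positive. In monosomes the median was -0.03 (0% of all genes called) and in polysomes 0.11 (0%), with 2 members at an unadjusted p under 0.05 in each by edgeR, and 6 and 2 by DESeq2, none after adjustment. By edgeR 1279 and 1069 of all 19121 genes had such a p. Mrps5, at 0.28 in monosomes (adjusted p = 0.68), and Mrps10, at 0.50 in polysomes (adjusted p = 0.79), had the smallest p values.

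The leaders were set against these genotype differences as a description. Over the 75 members the rank correlation with leader length was between -0.20 and 0.13 in the 6 comparisons of cHet with control. The rank correlation with leader GC content was largest in T532M monosomes, at 0.402. The 28 members with an upstream ATG had a median of -0.03 there, and the 47 without had 0.02. In T532M input these medians were -0.12 and -0.16.

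In the authors' deposited table of differential expression no member had an adjusted p under 0.05 in the input column of either cross. No source used here states what its monosome and polysome columns compare, so those columns were left aside. For input the authors' deposited table gave a median log2 fold change of 0.08 in LoF, with 64 members positive and 12 negative, and of -0.17 in T532M, with 1 positive and 74 negative. The smallest adjusted p values among the members there were 0.086 for Mrpl1 in LoF input and 0.065 for Mrpl48 in T532M input, from the authors' deposited table.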

How the data were processed

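RNA sequencing counts of 36 libraries were used as deposited. The authors' values are read pair counts over whole gene spans (introns included), made with featureCounts 2.0.3 on GENCODE M25 (GRCm38) with reverse-strand counting and ambiguous pairs dropped, per the file headers, after alignment with STAR 2.7.11a, per the submitters' processing notes. The authors' deposited comparison tables hold log2 fold changes with p-values from DESeq2 1.34.0, per the submitters' processing notes.

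Each cross was fitted on its 18 libraries (6 groups) in edgeR 4.0.16 under R 4.3.3, with TMM scaling, filterByExpr and glmQLFit, and the alleles were compared on all 36. Benjamini-Hochberg adjustment ran over all genes tested, and calls were made at an adjusted p of 0.05. The scripts were tested on simulated counts. CPM use the TMM factors of each cross. Coding, leader and RNA lengths come from GENCODE M21. The members, the lists and the rule for naming genes were chosen with earlier results of these data known. In each comparison up to 5 members per direction past the threshold were eligible, or else the 3 smallest p, together with 20 named for their role, the 5 highest and 5 lowest in polysome over monosome, and the 3 highest and 3 lowest levels. Nothing states that the pools of a group came from separate litters, so p-values measure the spread between these pools. Fractions of a number came from 1 lysate, by the protocol, and libraries of the same pool deviated together with correlations of -0.019 to 0.404 (LoF) and 0.099 to 0.552 (T532M).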

Additional observations from a re-analysis of the deposited data

How the results depend on the processing

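Alternatives were DESeq2, other scalings, no filter, replicate blocks, single-fraction fits, a length trend removed, members without overlaps, each pool left out and, chosen after seeing the data, the pools with most Ttr left out. None reversed a median of the members in control fraction comparisons. The count of members called, both directions together, stayed within 1.5 times in 273 of 280 recalculations and rose from 0 in 7. Comparisons between genotypes are among these and had 0 members called in the main fit. For them an unchanged count means only that 0 stayed 0. By direction, lower calls stayed within 1.5 times in 78 of 78 recalculations and higher calls in 68 of 78. Library totals took the higher calls from 7 to 4 (LoF) and 3 (T532M) in polysome over monosome, and from 3 and 2 to 0 in polysome over input; the others are given beside their results. With DESeq2 the count of members called between genotypes was 4 in T532M monosomes (564 genes in all). It was 2 for LoF minus T532M input (720 in all). With the length trend removed the count was 1 in T532M monosomes (358 in all). With the Ttr-rich pools left out (3 in LoF) it was 6 in LoF monosomes and 1 (Mrpl36, at -1.21, adjusted p = 0.039) for the LoF change of polysome over monosome. Both rest on 1 LoF control pool, assumed to vary like the remaining LoF cHet pools. Leaving out 1 pool at a time gave 0 to 1 members in LoF monosomes and in T532M monosomes. With library totals, Mrpl3 was at -0.282 and -0.615 in polysome over monosome (LoF and T532M controls), and in polysome over input Mrps27 was at -0.51 and -0.605, Mrps31 at -0.383 and -0.327 and Mrps5 (LoF) at -0.6. Replicate numbers were not taken to pair the genotypes, since not every pair was over 0.1: same-numbered libraries of both genotypes correlated at -0.5 to 0.223 (LoF) and -0.278 to 0.357 (T532M), over 0.1 in 1 of 9 and 6 of 9 pairs, and a block on the number called 0 members in the 9 comparisons it was run for. The pool as a block changed no call count by over 1.5 times; it gave medians of -1.609 and -1.526 for polysome over monosome in the controls. With 3 pools a group, a difference near 1 SE of a single member was not detectable.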
